A study of Arabidopsis thaliana with 24 samples.

Results

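The 7 genes described here encode the enzymes that break down glucosinolates in Arabidopsis thaliana and the proteins that set which products form. They were chosen by locus, as rows of both deposited tables: the myrosinases TGG1 (AT5G26000), TGG2 (AT5G25980) and PEN2 (AT2G44490), and the specifier proteins ESP (AT1G54040), ESM1 (AT3G14210), NSP1 (AT3G16400) and NSP5 (AT5G48180). They are 7 of the 37686 loci in each table, and their levels were followed across 8 times after leaf detachment in the wild type and in a jasmonate receptor mutant. The wild type was Col-0 (WT) and the mutant was coi1-2 (coi1 below), which carries a substitution in COI1, the receptor for jasmonoyl-isoleucine. Seedlings of both genotypes were 12 d old and had grown at 22 °C with 1% sucrose and 16 h of light a day. Blades of the first leaf pair were then cut off and kept on B5 medium without sugar in 24 h light, and whole explants were frozen right at detachment (t0), at 10 or 30 min, or at 1, 2, 4, 8 or 12 h. There was 1 WT library at each time, 8 in all, and there were 2 coi1 libraries at each time, 16 in all. Every library after t0 therefore differs from t0 in the cut, the medium, the light regime and the time of day at once, and these cannot be told apart.

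Glucosinolates are sulfur-rich thioglucosides that crucifers store away from the myrosinases that cleave them, and wounding brings both together. TGG1 and TGG2 are the classical myrosinases of the shoot. Between them they are made in guard cells and in the myrosin cells along the phloem, not necessarily both in each. PEN2 is an atypical myrosinase that hydrolyses indole glucosinolates in living cells as part of defence against fungi. Cleavage gives an unstable aglycone that rearranges to an isothiocyanate unless a specifier protein diverts it. ESP (epithiospecifier protein) diverts it to epithionitriles and nitriles, the nitrile-specifier proteins NSP1 and NSP5 divert it to simple nitriles, and ESM1 (epithiospecifier modifier), a member of the GDSL lipase family, favours the isothiocyanate. Jasmonate is the main wound hormone, and COI1 is needed to perceive it.

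Because reads of near-identical genes can be shared out wrongly, some relatives were compared on the TAIR10.1 reference, within TGG1 and TGG2 and within ESP and the NSP genes. No relative of PEN2 or ESM1 was compared. TGG1 lies at chr5:9079452-9082384 on the minus strand and TGG2 at chr5:9072708-9075777 on the plus strand, 3674 bases apart with 2 protein-coding genes between them. Their coding sequences were 82.8% identical, with a longest shared run of 55 bases. NSP1 (chr3:5566083-5568545, plus strand) lies between NSP3, 1508 bases away, and NSP4, 3357 bases away, with 0 protein-coding genes between. NSP1 was 94.8% identical to NSP4 over its coding sequence, with a shared run of 366 bases, and 92.2% identical to NSP3. Among the genes compared, the level of NSP1 is thus the one most open to sharing of reads. NSP2, NSP3 and NSP4 were, however, listed at no more than 0.20 TPM in any library. NSP5 was 67.2% identical to NSP1 and 65.4% to ESP, and ESP was 69.7% identical to NSP1, with shared runs of 10 to 13 bases. PEN2 (chr2:18364652-18367835, plus strand), ESP (chr1:20170715-20173949, minus strand), ESM1 (chr3:4729399-4731847, plus strand) and NSP5 (chr5:19540937-19542760, minus strand) complete the set.

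The 250 bases before the annotated start of TGG1 and TGG2 are shown because of the pairs compared within the 7 genes this was the closest in sequence and its balance differed between genotypes. Those of NSP1 and NSP4 are shown because 1 of these neighbours was abundant and the other was at or near 0. Each is written 5′ to 3′ on the strand of its gene, from TAIR10.1, and capitals mark runs of at least 10 bases that the members of a pair share. The windows are chr5:9082385-9082634 (minus strand) for TGG1, chr5:9072458-9072707 (plus strand) for TGG2, chr3:5565833-5566082 (plus strand) for NSP1 and chr3:5571653-5571902 (plus strand) for NSP4.
TGG1: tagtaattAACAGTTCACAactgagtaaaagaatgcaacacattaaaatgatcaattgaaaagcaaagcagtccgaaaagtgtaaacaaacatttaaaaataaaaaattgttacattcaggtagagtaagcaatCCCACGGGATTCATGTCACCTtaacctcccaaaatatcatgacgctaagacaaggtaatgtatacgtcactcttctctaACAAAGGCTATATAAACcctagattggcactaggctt
TGG2: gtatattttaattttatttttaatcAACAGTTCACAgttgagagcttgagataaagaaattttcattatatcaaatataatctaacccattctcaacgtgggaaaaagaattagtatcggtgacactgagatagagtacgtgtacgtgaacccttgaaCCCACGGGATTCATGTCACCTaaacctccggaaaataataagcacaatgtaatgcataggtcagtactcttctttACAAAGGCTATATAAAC
NSP1: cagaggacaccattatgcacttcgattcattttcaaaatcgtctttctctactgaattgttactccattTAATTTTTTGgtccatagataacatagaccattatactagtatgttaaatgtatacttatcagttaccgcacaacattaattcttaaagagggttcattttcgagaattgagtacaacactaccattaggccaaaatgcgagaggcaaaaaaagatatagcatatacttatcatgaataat
NSP4: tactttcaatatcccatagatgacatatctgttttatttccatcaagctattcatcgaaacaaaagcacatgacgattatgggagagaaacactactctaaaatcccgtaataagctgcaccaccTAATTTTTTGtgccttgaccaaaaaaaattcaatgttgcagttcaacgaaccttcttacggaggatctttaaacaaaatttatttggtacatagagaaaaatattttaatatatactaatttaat
TGG1 and TGG2 shared runs of 21, 17 and 11 bases, in the same order in both windows. The 21-base run begins 116 bases before the gene start in TGG1 and 92 bases before it in TGG2, and it was found in these 2 of 27443 promoters. The 17-base run, which holds a TATA-like stretch, was also found in 2 promoters and the 11-base run in 6. NSP1 and NSP4 shared a single run of 10 bases, found in 212 promoters. The G-box CACGTG, a motif that MYC-type factors bind, was found on either strand in 6.49% of all promoter windows of 250 bases and in none of the 7. Its variant AACGTG was found in 7.54% of windows and in that of TGG2, and CACATG in 11.1% and in those of ESM1 and NSP5. The W-box core TTGAC, which WRKY factors bind, was found in 44.9% of windows and in those of PEN2 and ESP. These are letter matches in a short window, and no binding was measured. The window of NSP5 overlapped annotated exons over 233 of its bases.

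All values are TPM, transcript abundance per length as a part of each library's fixed total, so levels may be compared between genes and read depth is unknown. From 17019 to 17840 genes per library were at 1 TPM or more. The spread within coi1 replicate pairs (root mean square over genes) was 0.319 to 0.501 log2 units at 6 times, but by 0.691 at t0 and 1.04 at 30 min, so each coi1 change from t0 rests on a baseline pair that spread more than most. The mutant transcript COI1 averaged 17.2 TPM in WT and 17.3 TPM in coi1, which does not check a substitution. Jasmonate-output genes followed the labels: VSP2, a vegetative storage protein, had a log2 difference of -5.74 ± 0.42 and LOX2, a jasmonate-synthesis enzyme, of -3.43 ± 0.32 between coi1 and WT (SE). JAZ10, a jasmonate repressor gene, differed by -1.72 ± 0.51 (SE). The adjusted p-values in limma were 3.49e-07, 4.96e-06 and 0.0357. The labels do not say that replicates came from separate cultures, so p-values measure the spread between these libraries only. WT and coi1 came from 2 separate tables, and genotype and table cannot be told apart. In whole explants, fewer cells of a type and less RNA per cell cannot be told apart either, which bears on every level below.

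The order of the 7 genes was led by the classical myrosinase and the modifier in both genotypes. In WT, TGG1 averaged 3515 ± 598 TPM, ESM1 1523 ± 443, TGG2 801 ± 114 and PEN2 128 ± 32.4 (SD over 8 times, n = 8 libraries). NSP1 averaged 88.5 ± 92.1 TPM, NSP5 61.2 ± 32.6 and ESP 57.3 ± 11.9. TGG1 was above every value of ESM1, and TGG2 above every value of PEN2, whereas ESM1 and TGG2 overlapped. The range of NSP1 overlapped those of PEN2, NSP5 and ESP, and every ESP value lay below every PEN2 value. In coi1 the means were 2605 ± 566 TPM for TGG1, 768 ± 297 for ESM1, 340.1 ± 49.1 for TGG2, 141 ± 75.6 for PEN2, 51.3 ± 24.4 for NSP5, 37.0 ± 7.33 for ESP and 18.8 ± 7.40 for NSP1 (SD, n = 16). The WT mean of NSP1 was raised by 1 library of 293 TPM at 4 h, and by median NSP1 (48.9 TPM) was below ESP (56.1 TPM) in WT. In coi1 NSP1 was the lowest of the 7 by mean and by median (20.0 TPM), and ESP and NSP5 still overlapped. Together the 7 genes held 0.550% to 0.701% of all TPM in WT libraries and 0.291% to 0.513% in coi1 libraries, ranges that do not overlap. Most of this sum is TGG1, ESM1 and TGG2, and no such sum was computed for other genes. The other classical myrosinases were absent from this picture: TGG3, TGG4, TGG5 and TGG6 were listed at 0 in all 24 libraries.

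**Figure D1:**
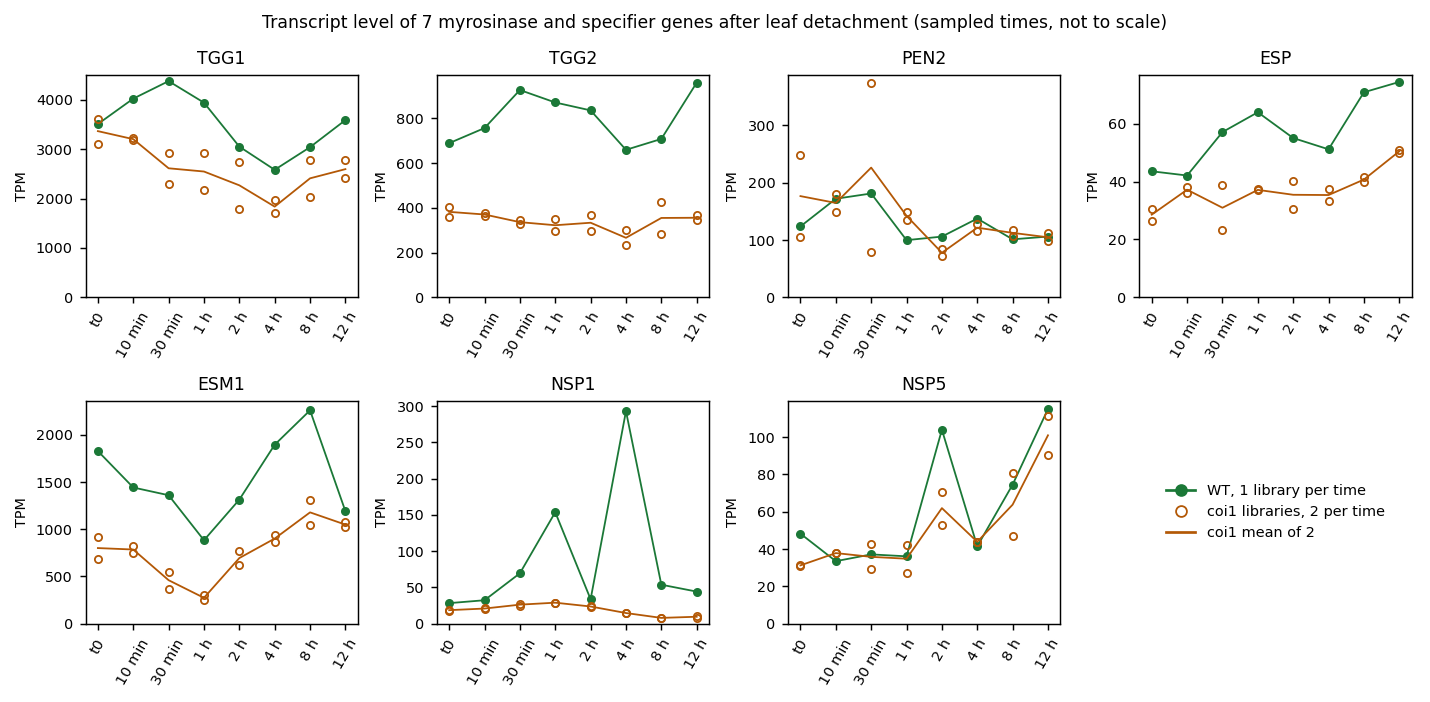
TPM of each of the 7 genes (vertical axis, from 0, own scale per panel) at the 8 sampled times (horizontal axis, evenly spaced), with filled points for the WT library and open points for the 2 coi1 libraries joined at their mean. TGG2, ESP, ESM1 and NSP1 have both coi1 points below the WT point at all 8 times, and NSP1 reaches 293 TPM in WT at 4 h against 14.3 and 15.0 TPM in coi1.

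TGG1, the main leaf myrosinase, was abundant throughout and lowest at 4 h. In WT it was at 3509.6 TPM at t0, 4024 at 10 min, 4378 at 30 min, 3943 at 1 h, 3052 at 2 h, 2583 at 4 h, 3041 at 8 h and 3589.6 at 12 h. In coi1 the 2 libraries were at 3110.4 and 3621 TPM (t0), 3177 and 3229.7 (10 min), 2922 and 2305 (30 min), 2164 and 2931 (1 h), 1796 and 2741 (2 h), 1966 and 1708 (4 h), 2040.3 and 2779 (8 h), and 2414 and 2778 (12 h). The lowest level was that of 4 h in both genotypes, and at t0 the WT value lay between the coi1 values. In coi1 TGG1 fell at 4 h by 0.87 ± 0.24 log2 units against t0 (SE, limma, adjusted p = 0.0395), 1 of the 7 genes called at that time against 14% of all 19323 genes tested. That call ended when any 1 of the 4 libraries compared was left out, when the adjusted p rose to as much as 0.217.

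TGG2, the second shoot myrosinase, separated the genotypes more cleanly than any of the other 6. The WT libraries held 689 TPM at t0, 757 at 10 min, 927 at 30 min, 871 at 1 h, 836 at 2 h, 659 at 4 h, 708 at 8 h and 959 at 12 h. In coi1 the pairs were 359 and 405 TPM (t0), 364 and 377 (10 min), 346 and 326 (30 min), 295 and 349 (1 h), 298 and 369 (2 h), 300.2 and 232 (4 h), 283 and 427 (8 h), and 345 and 367 (12 h). The highest coi1 library, at 427 TPM, lay below the lowest WT library, at 659 TPM. TGG2 was the only one of the 7 genes whose WT and coi1 ranges did not overlap, which 0.127% of 19757 genes showed in this direction. Its level at single times was 1.80 to 2.76 times higher in WT than the coi1 mean, and the smallest of these ratios was that at t0. Time moved it less: no coi1 time passed the test against t0, with log2 changes from -0.53 at 4 h to -0.043 at 10 min.

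The ratio of TGG1 to TGG2 within a library does not depend on the scaling of that library. In WT it was 5.09 at t0, 5.32 at 10 min, 4.72 at 30 min, 4.53 at 1 h, 3.65 at 2 h, 3.92 at 4 h, 4.30 at 8 h and 3.74 at 12 h. In coi1 it ranged from 6.03 to 8.95 with a median of 7.40, so every coi1 library lay above every WT library. TGG2 alone already separated the libraries, so the ratio is not independent of that result. The share of other gene pairs so separated was not computed. The mean log2 difference over the 8 times was 0.79 ± 0.097 (SD, n = 8 times), a 1.73-fold higher ratio in coi1, with the same direction at 8 of 8 times. An exact two-sided sign-flip test over times gave p = 0.00781, the smallest it can give with 8 times, and 0.0234 after Benjamini-Hochberg adjustment over the 3 ratios computed. The ratios were chosen after the values were seen. Each pair of libraries shares its time but WT has 1 library at each, and the test treats times as independent.

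**Figure D2:**
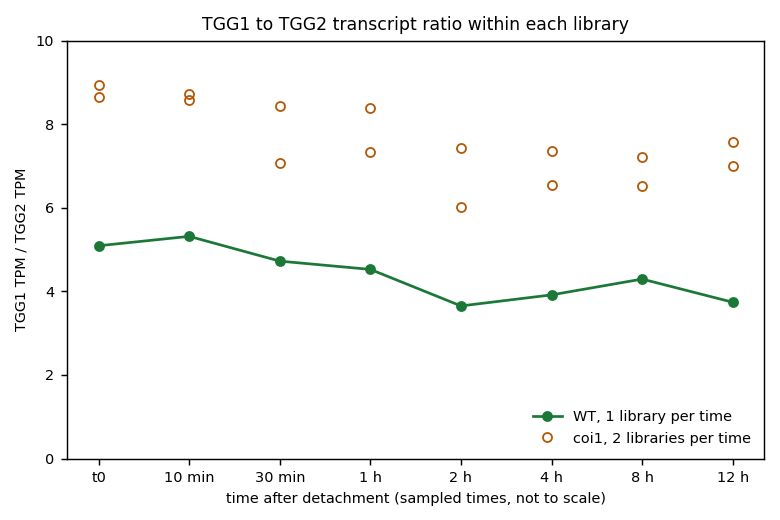
Ratio of TGG1 TPM to TGG2 TPM in each library (vertical axis, from 0) at the 8 sampled times (horizontal axis), with filled joined points for WT and open points for the 2 coi1 libraries. All 16 coi1 points, from 6.03 to 8.95, lie above all 8 WT points, from 3.65 to 5.32.

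PEN2, the myrosinase of indole glucosinolates in defence, was the member with the least reproducible values. WT values of PEN2 were 124 TPM at t0, 172 at 10 min, 181 at 30 min, 99.8 at 1 h, 106 at 2 h, 137 at 4 h, 101 at 8 h and 106 at 12 h. In coi1 the pairs were 248 and 105 TPM (t0), 181 and 149 (10 min), 374 and 79.0 (30 min), 149 and 136 (1 h), 71.3 and 84.1 (2 h), 116 and 127 (4 h), 108 and 117 (8 h), and 97.9 and 112 (12 h). The pairs of t0 and 30 min, the 2 that spread most over all genes, were also those in which PEN2 differed more than 2-fold between replicates, with replicate 1 the higher in both. Its pooled replicate SD was 0.65 log2 units, against 0.11 to 0.31 for the other 6 genes. PEN2 was called in none of the comparisons as reported, and its log2 difference between genotypes was 0.031 ± 0.21 (SE, limma, adjusted p = 0.936). PEN2 was called in 2 alternatives, at 2 h without the 30 min libraries (adjusted p = 0.0243, limma) and over all coi1 times without replicate 2 of 30 min (adjusted p = 0.0118, limma). The sign of the genotype difference turned to -0.0098 without the libraries of t0 and 30 min, an alternative chosen after the data were seen.

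ESP, the epithiospecifier protein, was among the less abundant transcripts of the set, with NSP1 and NSP5. No product was measured, nor whether ESP is active in these plants, so its transcript level does not speak to the products formed. In WT it was at 43.6 TPM at t0, 42.1 at 10 min, 57.1 at 30 min, 64.0 at 1 h, 55.1 at 2 h, 51.2 at 4 h, 70.9 at 8 h and 74.5 at 12 h. In coi1 the pairs were 26.5 and 30.7 TPM (t0), 36.2 and 38.3 (10 min), 38.8 and 23.2 (30 min), 37.3 and 37.0 (1 h), 30.7 and 40.2 (2 h), 37.6 and 33.2 (4 h), 39.8 and 41.6 (8 h), and 50.0 and 51.0 (12 h). Both genotypes were highest at 12 h, and both coi1 libraries were below WT at every time. In coi1 ESP rose at 12 h by 0.80 ± 0.21 log2 units against t0 (SE, limma, adjusted p = 0.0206), and the single WT difference at 12 h was 0.76. The coi1 call was lost without replicate 1 of t0 or without either replicate of 12 h, with an adjusted p of up to 0.111.

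ESM1, which tilts the outcome towards isothiocyanates, was 1 of the 3 most abundant transcripts of the set and was lowest at 1 h in both genotypes. The WT series of ESM1 ran from 1829 TPM at t0, 1443 at 10 min, 1361 at 30 min, 884 at 1 h, 1315 at 2 h, 1897 at 4 h, 2261 at 8 h and 1192 at 12 h. In coi1 the pairs were 687 and 915 TPM (t0), 744 and 827 (10 min), 549 and 372 (30 min), 248 and 299.6 (1 h), 618 and 772 (2 h), 939 and 864 (4 h), 1047 and 1312 (8 h), and 1019 and 1079.8 (12 h). The lowest value in each genotype was at 1 h and the highest at 8 h, and the genotypes came nearest to each other at 12 h. In coi1 ESM1 fell at 30 min by 0.81 ± 0.22 log2 units (adjusted p = 0.0478) and at 1 h by 1.54 ± 0.22 (adjusted p = 0.000911; SE, limma). The WT library at 1 h differed from that at t0 by -1.05, a fall of at least 2-fold that 10% of 18906 genes also showed there. The 1 h call held in 12 of 12 alternatives, whereas the 30 min call was lost in 6 of 11, with adjusted p-values up to 0.655.

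NSP1, the nitrile-specifier protein of leaves, had the widest fold range of the set in WT, 10.4 between its highest and lowest library, against 3.75 in coi1. In WT it was at 28.3 TPM at t0, 32.3 at 10 min, 69.5 at 30 min, 154 at 1 h, 33.6 at 2 h, 293 at 4 h, 53.7 at 8 h and 44.2 at 12 h. In coi1 the pairs were 19.5 and 17.7 TPM (t0), 21.2 and 20.5 (10 min), 25.0 and 27.4 (30 min), 28.8 and 29.0 (1 h), 22.9 and 24.4 (2 h), 15.0 and 14.3 (4 h), 7.74 and 8.10 (8 h), and 8.17 and 10.9 (12 h). WT had a peak at 1 h and a higher one at 4 h with a single low library at 2 h between them, while coi1 stayed between 7.74 and 29.0 TPM. The WT log2 differences from t0 were 1.27 at 30 min, 2.40 at 1 h and 3.33 at 4 h, where 8.19%, 12.1% and 9.95% of genes were at least 2-fold higher, and each rests on 1 library without a test. The same WT libraries gave 268, 46.8 and 906 TPM of VSP2 and 3945, 2096 and 5779.6 TPM of LOX2 at 1 h, 2 h and 4 h, so these jasmonate-output genes were also lower at 2 h than at the times on either side. Whether that reflects the 2 h library or the time was not tested.

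In coi1 NSP1 was above its t0 level at 1 h and below it at 8 h and 12 h. It rose by 0.47 ± 0.13 log2 units at 30 min (adjusted p = 0.0487) and by 0.61 ± 0.13 at 1 h (adjusted p = 0.00611), then fell by 1.13 ± 0.13 at 8 h (adjusted p = 0.000313) and by 0.91 ± 0.13 at 12 h (adjusted p = 0.000778; SE, limma). The 8 h and 12 h calls held in 12 of 12 alternatives and the 1 h call in 11 of 12. The 30 min call held in 4 of 11, with adjusted p-values up to 0.655. At 8 h the WT library was still higher than at t0, by 0.90 log2 units, and NSP1 was 6.78 times higher in WT than the coi1 mean there. At 4 h it was 20.0 times higher in WT, the largest such ratio among the 7 genes at any time.

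NSP5 is a relative of NSP1 that also forms simple nitriles. It was called above t0 in coi1 at 2 h, 8 h and 12 h, and was not called between genotypes. In WT it was at 48.2 TPM at t0, 33.5 at 10 min, 37.1 at 30 min, 36.1 at 1 h, 104 at 2 h, 41.5 at 4 h, 74.5 at 8 h and 115 at 12 h. In coi1 the pairs were 31.0 and 31.5 TPM (t0), 38.1 and 37.6 (10 min), 29.1 and 42.5 (30 min), 42.3 and 27.3 (1 h), 70.8 and 53.1 (2 h), 43.9 and 43.9 (4 h), 46.9 and 80.7 (8 h), and 90.6 and 111 (12 h). Both genotypes had a higher value at 2 h than at 1 h or 4 h and their highest value at 12 h. In coi1 it rose by 0.95 ± 0.28 log2 units at 2 h (adjusted p = 0.0335), by 0.96 ± 0.28 at 8 h (adjusted p = 0.0485) and by 1.65 ± 0.28 at 12 h (adjusted p = 0.00241; SE, limma). The 12 h call held in 12 of 12 alternatives. The 2 h call was lost when any 1 of its 4 libraries was left out, with adjusted p-values up to 0.210, and the 8 h call was lost in 8 of 12 alternatives, at up to 0.300 without replicate 2 of 8 h. The WT differences were 1.09 at 2 h and 1.24 at 12 h, where 9.57% and 9.75% of genes were at least 2-fold higher.

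**Figure D3:**
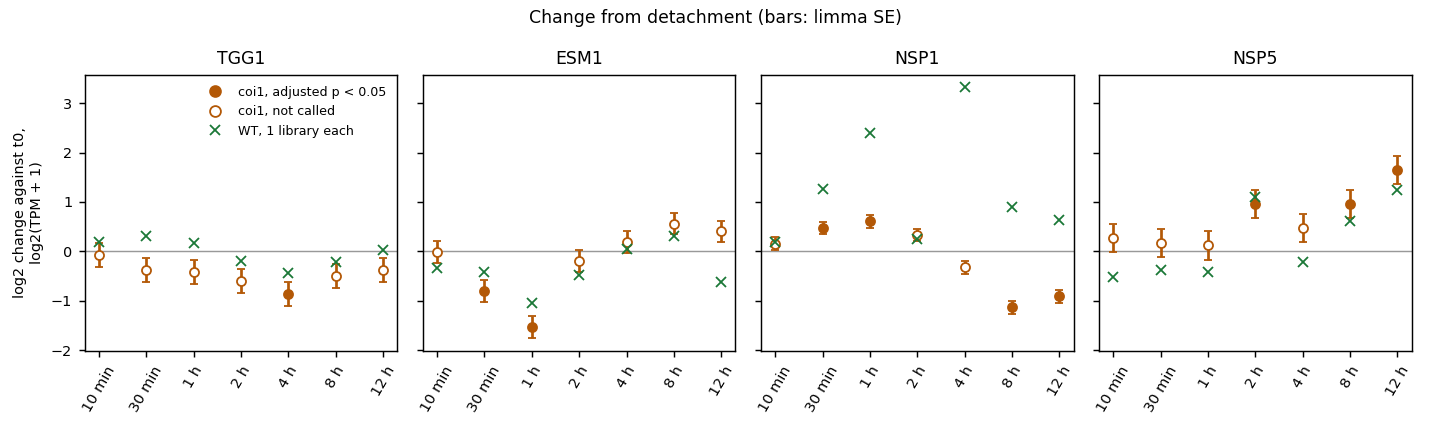
Log2 change from t0 of TGG1, ESM1, NSP1 and NSP5 (vertical axis, on log2(TPM + 1)) at the 7 later times (horizontal axis), with coi1 estimates as circles with their limma SE, filled where the adjusted p was below 0.05, and the untested WT differences between single libraries as crosses. NSP1 crosses reach 2.40 at 1 h and 3.33 at 4 h while the coi1 circles end at -1.13 and -0.91 at 8 h and 12 h.

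By time, the counts of coi1 calls among the 7 genes stood beside large responses of the whole transcriptome. All 7 passed the filter on low values in every fit. At 10 min 0 of 7 genes were called in limma at an adjusted p below 0.05, against 0.533% of 19323 genes, and 0 of 7 also had an unadjusted p below 0.05. At 30 min 2 of 7 were called against 9.23%, at 1 h 2 of 7 against 31.2%, at 2 h 1 of 7 against 25.6%, at 8 h 2 of 7 against 14.6% and at 12 h 3 of 7 against 21.7%. Over all coi1 times together 3 of 7, ESM1, NSP1 and NSP5, were called by an F test, against 58.9% of genes, a share that the 7 genes did not exceed. Without replicate 2 of 30 min this count was 5. All these comparisons share the t0 libraries. TGG1, TGG2, PEN2 and ESP did not pass the test over all times (adjusted p = 0.112, 0.385, 0.560 and 0.0944). In the WT time course, a spline over 8 single libraries, 0 of 7 were called and 0% of 18906 genes were, although 3458 genes had an unadjusted p below 0.05. The median of all genes shifted by -0.18 at 30 min, -0.17 at 1 h and 0.11 at 8 h in coi1, and rescaling the libraries changed the sign of no called value.

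Between genotypes, 5 of the 7 genes were lower in coi1 over all times, against 8.67% of 19757 genes lower and 12.5% called in either direction. The specifier NSP1 differed most, by -1.80 ± 0.30 log2 units (adjusted p = 0.00109), followed by TGG2 at -1.24 ± 0.089 (adjusted p = 3.49e-07) and ESM1 at -1.06 ± 0.13 (adjusted p = 8.61e-05; SE, limma). ESP differed by -0.62 ± 0.088 (adjusted p = 0.000314) and TGG1 by -0.45 ± 0.098 (adjusted p = 0.00873; SE, limma). NSP5 gave -0.22 ± 0.12 (adjusted p = 0.239) and PEN2 0.031 ± 0.21 (adjusted p = 0.936), neither past the threshold (SE, limma). TGG2 had the fourth smallest p of all genes. At all 8 times both coi1 libraries lay below the WT library for TGG2, ESP, ESM1 and NSP1, a pattern that 2.48% of genes showed. For TGG1 this held at 7 times, for NSP5 at 3 times and for PEN2 at 2. Both coi1 libraries lay above WT at 2 times for NSP5 and at 2 times for PEN2.

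The fit takes the 8 WT libraries, 1 at each time, as the only measure of WT. The calls of TGG2 and ESM1 held in 34 of 34 alternatives, those of ESP in 33 and TGG1 in 32, but most alternatives leave out only 1 library. ESP lost its call with coi1 replicate 2 alone. TGG1 lost its call with coi1 replicate 2 alone, at -0.36 log2 units, and with 16 group means, at -0.44. NSP1 was called in 31 and lost its call with either coi1 replicate number alone and with 16 group means, at adjusted p-values up to 0.0888.

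**Figure D4:**
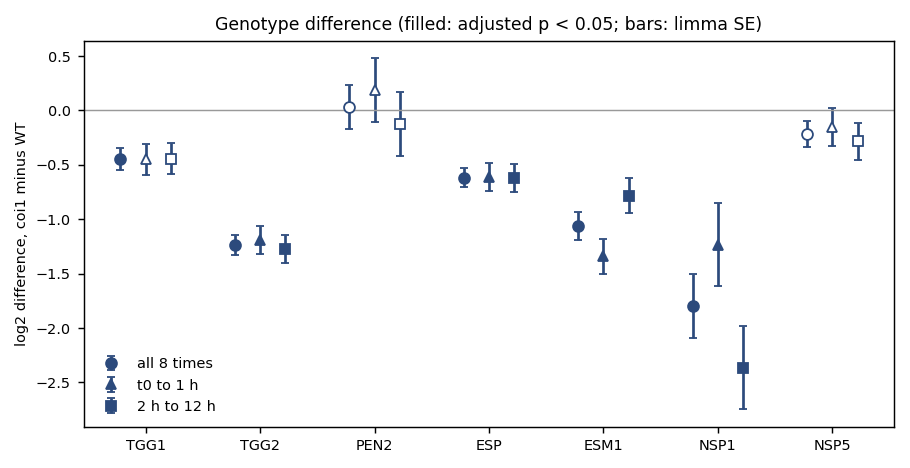
Log2 difference of coi1 minus WT (vertical axis) for each of the 7 genes, over all 8 times (circles), over t0 to 1 h (triangles) and over 2 h to 12 h (squares), with limma SE as bars and filled symbols where the adjusted p was below 0.05. TGG2 lies between -1.28 and -1.19 in each period, while NSP1 goes from -1.23 to -2.36 and ESM1 from -1.34 to -0.78.

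Split by period, 4 of 7 genes were lower in coi1 from t0 to 1 h, against 7.04% of genes lower and 10.3% called, and 4 of 7 from 2 h to 12 h, against 1.84% lower and 2.27% called. In both periods these were TGG2, ESP, ESM1 and NSP1. TGG2 gave -1.19 ± 0.13 and then -1.28 ± 0.13 log2 units, and ESP -0.61 ± 0.13 and -0.62 ± 0.13 (SE). These were nearly flat across the periods. ESM1 gave -1.34 ± 0.16 early and -0.78 ± 0.16 late, and NSP1 -1.23 ± 0.38 early and -2.36 ± 0.38 late (SE). The difference between periods was tested itself, and 0 of 7 genes were called in limma, against 0.38% of genes, with 2949 genes at an unadjusted p below 0.05. ESM1 had a late minus early difference of 0.56 ± 0.23 (unadjusted p = 0.0272, adjusted p = 0.282) and NSP1 of -1.13 ± 0.54 (adjusted p = 0.339; SE, limma). Without the WT library of 4 h the NSP1 value between periods was -0.51 and without that of 2 h it was -1.76, and the ESM1 value was 0.36 without the WT library of 12 h. The late NSP1 difference was -1.74 without the WT library of 4 h and -2.99 without that of 2 h, and its call was lost with either coi1 replicate number alone and with 16 group means (adjusted p = 0.175, 0.245 and 0.173, limma). The early call of NSP1 (adjusted p = 0.0492) held in only 8 of 34 alternatives, and without the WT library of 1 h its difference was -0.86. The calls of ESM1 and ESP from 2 h to 12 h were lost without the WT library of 2 h or that of 8 h (adjusted p = 0.0984 and 0.0744 for ESM1, 0.0732 and 0.0737 for ESP, limma), which left 2 of 7. Both late calls were also lost with coi1 replicate 1 alone, with replicate 2 alone and with 16 group means. There ESM1 gave -0.86, -0.71 and -0.78 log2 units and ESP -0.66, -0.59 and -0.62. The late call of TGG2 was lost with coi1 replicate 2 alone, at -1.20. The early call of ESP was lost without the WT library of 30 min or 1 h (adjusted p = 0.0616 and 0.0691, limma), which also left 2 of 7. This ESP call was lost too with coi1 replicate 1 alone, with replicate 2 alone and with 16 group means, at -0.55, -0.67 and -0.60. TGG1 gave -0.45 early and -0.44 late, past the threshold in neither period (adjusted p = 0.0553 and 0.105, limma). Its early difference was called in 9 of 34 alternatives and its late difference in 0 of 34.

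Within libraries, the ratios of NSP5 to NSP1 and of ESM1 to ESP were compared between genotypes over the 8 times. They were chosen after the values were seen and draw on the genotype differences given above, so their tests add no separate support. The ratio of NSP5 to NSP1 ranged from 0.142 to 3.09 in WT with a median of 1.21, and from 0.942 to 11.1 in coi1 with a median of 2.01. It was higher in coi1 at 6 of 8 times, by 1.64 ± 1.52 log2 units on average (SD, n = 8 times, exact two-sided sign-flip p = 0.0313, also after adjustment over 3 ratios). The ratio of ESM1 to ESP was 13.8 to 42.0 in WT and 6.64 to 31.5 in coi1. It was lower in coi1 at 7 of 8 times, by -0.43 ± 0.41 log2 units (SD, n = 8 times, same test and p). Without the libraries of t0 and 30 min neither passed 0.05, with exact p-values of 0.0625 and 0.125.

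Among the other genes of the pathway, the counts below are read against 8.67% of all genes called lower in coi1, 12.5% called in either direction and an all-gene median of -0.050 log2 units. Of 10 myrosinase-associated and myrosinase-binding genes, 8 were tested and 6 were lower in coi1 (0 higher), against 8.67% of all genes lower, with a median of -1.32 log2 units. MBP2 and AT1G54020 passed the filter on low values through WT alone, as their coi1 libraries held at most 0.71 and 0.13 TPM. These could hardly have come out higher in coi1, and the fits of coi1 alone tested 6 of the 10 genes. MBP1, a myrosinase-binding protein, ranged from 7.01 to 147 TPM in WT (median 55.5) and from 0.0200 to 5.60 TPM in coi1 (median 0.270), and differed by -4.89 ± 0.28 (adjusted p = 1.67e-08, limma). MBP2, its neighbour, differed by -2.89 ± 0.46 and GLL23, a GDSL lipase-like protein, by -2.13 ± 0.40 (SE, limma, adjusted p = 0.00091 and 0.00342). Of the 15 other beta-glucosidases of the clades BGLU18 to BGLU33, 4 were tested and 1 was lower, against the same 8.67%. This was BGLU18, an enzyme of endoplasmic reticulum bodies, at -4.86 ± 0.41 (SE, limma, adjusted p = 1.85e-06).

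In the pathway that makes the substrates of PEN2, 3 genes of early steps were lower in coi1. Of 10 genes for indole glucosinolates and the PEN2 branch, 3 were lower in coi1 and 0 higher, against 8.67% of all genes lower, with a median of -0.17 against -0.050 over all genes. They were CYP79B3 at -2.27 ± 0.30, CYP79B2 at -1.99 ± 0.28 and CYP83B1 at -1.51 ± 0.29, of which the CYP79B enzymes turn tryptophan into indole-3-acetaldoxime and CYP83B1 oxidises that product (SE, limma, adjusted p = 0.00017, 0.000316 and 0.00354). PEN3, the transporter that exports PEN2 products, gave -0.54 ± 0.35 and did not pass the test (SE, limma, adjusted p = 0.318). Of 3 glucosinolate transporters 2 were lower, against 8.67% of all genes, GTR1 by -1.21 ± 0.28 and GTR2 by -0.58 ± 0.17 (SE, limma, adjusted p = 0.0107 and 0.0316). Of 4 nitrilases, which hydrolyse nitriles, 3 were tested and 1 was lower, against the same share, NIT3 at -0.81 ± 0.18 (SE, limma, adjusted p = 0.00888).

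**Figure D5:**
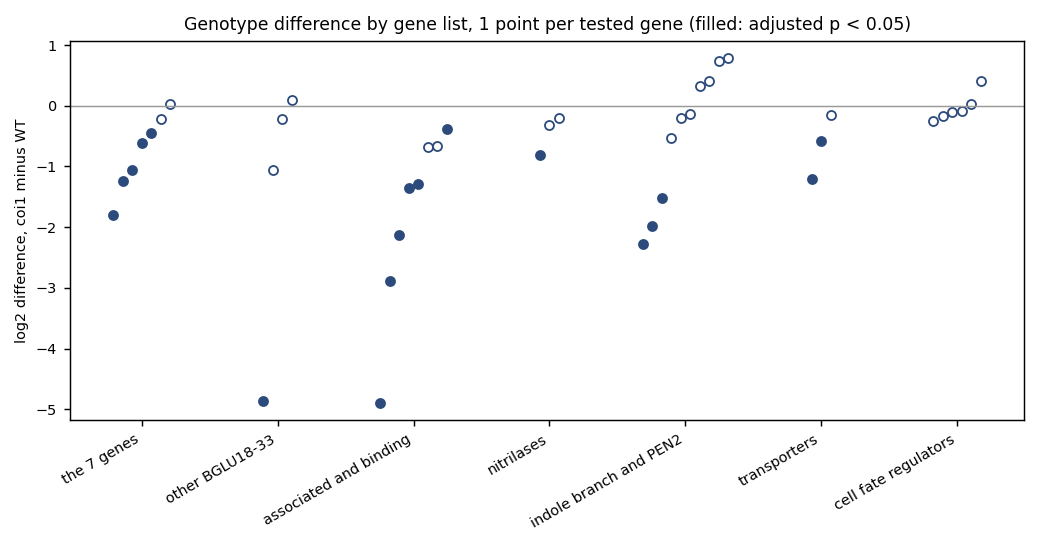
Log2 difference of coi1 minus WT over all times (vertical axis), 1 point for each tested gene, for the 7 genes and the 6 pathway lists with tested genes (horizontal axis), filled where the adjusted p was below 0.05. The lowest points are MBP1 at -4.89 and BGLU18 at -4.86, and no cell fate regulator is filled.

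Regulators of myrosin cell and guard cell fate were looked at, with markers of guard cells, phloem, epidermis and mesophyll. No marker list was for myrosin cells, and the phloem markers do not stand for them. Of 6 regulators of myrosin cell and guard cell fate 0 were called in limma, with 1 at an unadjusted p below 0.05. FAMA, the factor that both fates need, averaged 24.7 ± 1.64 TPM in WT (SD, n = 8) and 23.4 ± 3.04 in coi1 (SD, n = 16). Of 6 guard cell markers 0 were called, with a median of 0.0055 and summed levels of 284 to 589 TPM in WT and 237 to 603 TPM in coi1. Of 4 phloem markers 2 were lower in coi1, against 8.67% of all genes lower, with a median of -0.43 against -0.050 over all genes and sums of 242 to 496 TPM in WT and 159 to 335 TPM in coi1. Of 4 epidermis markers 1 was higher (sums 160 to 266 and 208 to 496 TPM), and of 4 mesophyll markers 2 were higher and 1 lower, against 12.5% of all genes called in either direction. No marker was at 0 in all libraries of a genotype. The 2 phloem markers called were lower in coi1, as TGG1 and TGG2 were, and the part of phloem in those differences was not tested.

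The genes most like each member were found by Pearson correlation of log2(TPM + 1) over the 24 libraries, among 13847 genes with a mean of at least 5 TPM. The libraries share genotype and time, so these values are descriptions. TGG2 was most like MBP1 (r = 0.92), AT4G29700 (0.92) and AT1G12050 (0.90), and TGG1 most like HEMD (0.88), AT3G56810 and AT4G28706 (0.86 each). ESP was most like FMO GS-OX2 (0.91), SAL1 (0.91) and LOX2 (0.90), and NSP1 most like AT2G34810 (0.87), VSP2 (0.85) and AT4G02360 (0.85). The genotype difference enters all of these. For NSP5 the nearest were AT5G59770, ACLA-1 and ABCC2 (0.95 each), for ESM1 PME3 (0.92), AT5G13520 (0.91) and XBCP3 (0.89), and for PEN2 PSKR1 (0.91), pEARLI4 (0.90) and ARP8 (0.90). No member was among the 3 genes nearest to another. Between members, TGG1 and TGG2 correlated at 0.77 over 24 libraries, 0.63 within the 8 WT libraries and 0.87 within the 16 coi1 libraries. ESM1 and NSP1 had r = -0.81 within coi1, where one was lowest and the other highest at 1 h, and -0.09 within WT.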

How the data were processed

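The deposited values were TPM for 37686 loci in each of 2 tables, 1 per genotype. Per the submitters' processing notes, RSEM 1.3.2, STAR 2.7.2b and Trim Galore 0.5.0 were used and the genome was TAIR10. Only TPM from the authors were used here, so read depth is unknown and no counting interval is given. TPM is relative within a library. The WT table holds 8 further columns that match no label, and they were not used. Libraries were grouped by their titles: 8 WT and 16 coi1.

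Values were tested as log2(TPM + 1) with limma 3.58.1 in R 4.3.3, with a variance trend, Benjamini-Hochberg adjustment over all genes tested and a threshold of 0.05. A gene entered a fit if 2 or more of its libraries held 1 TPM or more. A fold change on this scale understates the change of low genes. Each coi1 time was set against t0 in a model of the 16 coi1 libraries (8 residual degrees of freedom). WT times were fitted by a natural spline with 3 degrees of freedom (splines 4.3.3, 4 residual degrees of freedom), and genotype was fitted beside time in 24 libraries (15, and 14 by period). Ratios of TPM within a library were tested by an exact two-sided sign-flip test over times. The fits of genotype over all times and of coi1 at 12 h were also run on simulated data, whose outcome is not used here. The simulated noise was independent between libraries, with the coi1 replicate spread in both genotypes. It therefore cannot speak to the single WT library at each time or to replicates that are not independent.

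The 7 genes, the 8 pathway lists and the 4 marker lists were chosen with earlier results of these data known. All 7 genes are named. From each list up to 3 called genes with the largest differences are named in a comparison, COI1, JAZ10, LOX2 and VSP2 check the labels, and the 3 genes of highest correlation are named for each member. FAMA, PEN3 and genes listed at or near 0 fall outside that rule and were named after their values were seen. Sequences, positions and exons came from TAIR10.1 in RefSeq, in which 37390 loci were found, with Python 3.11.15 and Biopython 1.88. Figures were drawn with matplotlib 3.10.9. Alternatives were a pseudocount of 0.1, no filter, a filter of 5 TPM, rescaled libraries, no variance trend, a replicate block, fewer libraries, group means, single coi1 replicate numbers, a spline with 2 degrees of freedom and each library left out in turn. Leaving out the libraries of t0 and 30 min was added after the data were seen.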

Additional observations from a re-analysis of the deposited data

Results flagged for a closer look

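Among the pathway lists, 2 genes had a genotype difference that itself differed between the early and late periods. PYK10, the beta-glucosidase of endoplasmic reticulum bodies, was at 8.97, 5.75, 5.56 and 4.45 TPM in WT from t0 to 1 h and at 48.0, 151, 104 and 52.9 TPM from 2 h to 12 h, while its coi1 libraries ranged from 11.4 to 22.0 TPM early and from 3.82 to 11.2 TPM late. It was higher in coi1 early, by 1.26 ± 0.21 log2 units, and lower late, by -3.39 ± 0.21, and the late minus early difference was -4.64 ± 0.29 (SE, limma, adjusted p = 4.34e-07). PBP1, which binds PYK10, was at 26.2 to 48.3 TPM in WT early and at 87.9, 639, 124 and 92.0 TPM late, while coi1 stayed between 29.1 and 66.7 TPM. Its late minus early difference was -2.21 ± 0.41 (SE, limma, adjusted p = 0.0278).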

How the results depend on the processing

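Each count below is of the 7 genes. Leaving out 1 library at a time gave 2 to 4 genes lower by genotype from 2 h to 12 h (4 with all libraries), 2 to 5 from t0 to 1 h (4), 3 to 5 called over all coi1 times (3), and in coi1 0 to 1 at 2 h (1), 0 to 2 at 30 min (2), 0 at 4 h (1) and 1 to 2 at 8 h (2). With 16 group means the genotype counts were 3 over all times, 2 early and 1 late. With coi1 replicate 1 alone they were 2 early and 1 late, and with replicate 2 alone 2 over all times, 2 early and 0 late. Fits of only the 4 libraries compared called 0 at 30 min, 1 at 1 h, 2 at 4 h and 1 at 8 h. Without a filter the counts were 1 at 30 min, 0 at 4 h and 1 at 8 h. Without a trend, and likewise after rescaling, they were 1 at 30 min and 1 at 8 h, and with a pseudocount of 0.1 the count was 1 at 30 min. Without the 30 min libraries, chosen after seeing the data, 3 were called at 2 h and 4 at 8 h. Replicate numbers did not pair the samples consistently: over 28 pairs of times the correlation of same-numbered deviations ran from -0.313 to 0.497, with a median of 0.00051 and 7 above 0.1. The replicate block gave 0 calls at 30 min and 1 at 8 h in coi1. The causes were not tested.

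Values that changed sign were of differences that passed no test. Rescaling turned the 10 min changes of ESM1, TGG1 and TGG2 to 0.10, 0.049 and 0.073, the 30 min change of TGG2 to 0.011 and the late minus early difference of TGG1 to -0.032. That of TGG1 was -0.086 with replicate 1 alone, and with replicate 2 alone those of ESP and PEN2 were 0.081 and 0.26. PEN2 by genotype was -0.30 early and -0.17 over all times with replicate 2 alone, -0.0098 over all times without t0 and 30 min, and 0.076 late under the replicate block. NSP5 early was 0.044 without t0 and 30 min. With 1 library left out, ESM1 ranged from -0.22 to 0.19 at 10 min, -0.40 to 0.0074 at 2 h and -0.022 to 0.39 at 4 h, and ESP from -0.29 to 0.43 at 30 min. NSP5 ranged from -0.19 to 0.42 at 1 h, -0.10 to 0.43 at 30 min and, by genotype early, -0.26 to 0.0045. PEN2 ranged from -0.80 to 0.43 at 1 h, -0.60 to 0.64 at 10 min, -1.02 to 1.20 at 30 min, -1.03 to 0.21 at 4 h and -1.14 to 0.10 at 8 h, and by genotype from -0.019 to 0.43 early and -0.073 to 0.14 over all times. TGG1 at 10 min ranged from -0.18 to 0.042, and TGG2 from -0.13 to 0.042 at 10 min and -0.43 to 0.16 at 8 h. The late minus early differences ranged from -0.11 to 0.13 for ESP, -0.29 to 0.020 for NSP5, -0.10 to 0.13 for TGG1 and -0.17 to 0.033 for TGG2. Depth is unknown, and 1 WT library a time limits every WT value.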

Other observations

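Nitrilases, which hydrolyse nitriles, were called higher than at t0 in coi1 from 1 h on. Of 3 tested, 3 rose at 1 h and at 2 h, with list medians of 1.24 and 1.71 log2 units, against 31.2% and 25.6% of all genes called in either direction. At 4 h, 8 h and 12 h 2 of 3 rose, NIT1 and NIT4, against 14%, 14.6% and 21.7%, with a list median at 12 h of 2.35 against 0.081 over all genes. NIT3 gave 0.51 ± 0.22 at 12 h and did not pass the test (SE, limma, adjusted p = 0.123). NIT4, which acts on cyanoalanine, rose from 4.98 and 5.75 TPM at t0 to 139.6 and 204 TPM at 12 h, by 4.74 ± 0.42 log2 units (SE, limma, adjusted p = 3.67e-05), and the WT library of 12 h held 171 TPM against 4.18 TPM at t0. NIT1 rose at 12 h by 2.35 ± 0.38 (SE, limma, adjusted p = 0.00172). Of the other beta-glucosidases, BGLU18 rose by 3.01 log2 units and PYK10 fell by 2.00 in coi1 at 12 h (limma, adjusted p = 6.06e-05 and 8.57e-05), while 0 of 10 genes of the indole branch were called there in limma, with 4 at an unadjusted p below 0.05.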
